A study of Mus musculus with 45 samples.

Results

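The transforming growth factor beta (TGF-beta) ligands, their receptors and the proteins that hold the ligands in latent form were followed across mouse brain tumours of 8 genotypes. The set held 10 genes: Tgfb1, Tgfb2 and Tgfb3 (the ligands), Tgfbr1 and Tgfbr2 (the type I and type II receptors), Ltbp1, Ltbp2, Ltbp3 and Ltbp4 (the latent TGF-beta binding proteins) and Tgfbi (an extracellular matrix protein named for its induction by TGF-beta). These were the 10 of 17097 genes on the array that carried the named symbols, and where a gene had several probe sets the brightest by its average across the 45 arrays was read. All 10 passed the filter on low values, which asked for 3 or more arrays with a log2 signal above 4.79, the median of the table, and which 11809 genes passed. Tgfb1 passed with exactly 3 arrays above the median, Ltbp2 with 5 and Tgfb2 with 22, so their values lay mostly in the low range of the array.

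TGF-beta is secreted as a dimer that stays bound to its own propeptide and cannot reach its receptors. A latent binding protein is disulfide-linked to that propeptide in most cells and anchors the complex in the extracellular matrix, from which integrins and proteases release the active ligand. Free ligand is bound by the type II receptor, which phosphorylates the type I receptor, and the type I receptor phosphorylates SMAD2 and SMAD3. In glioblastoma the pathway is known for its part in invasion, matrix production and immune suppression.

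The tumours came from a glioblastoma model in CD-1 nude mice, an athymic host, and every group was p53 null. The mutant groups carried a PDGFRA (platelet-derived growth factor receptor alpha) mutant: Pdgfra C450 ins, D842V and E10 del with 5 arrays each, E7 del with 3, and E10 del.v2 and V544ins with 9 each. Pdgfra WT, the unmutated receptor, gave 1 array, and EGFRvIII, an always-active form of the epidermal growth factor receptor that lacks part of its extracellular domain, gave 8. The series text describes retroviral delivery of wild-type and mutant PDGFRA and p53-null primary mouse astrocytes as the cellular background, and the promoter of the constructs and the number of clones are not given in the sources used here. The labels do not say whether the replicates are separate animals, so p-values reflect only how these samples vary, which may be technical.

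Array medians ran from 4.66 to 4.85. Sample titles carry numbers from 1 to 30 (21 arrays) or from 41 to 64 (24 arrays), and the labels do not call these batches. All EGFRvIII, E7 del and Pdgfra WT arrays lay in the upper range, all C450 ins, D842V and E10 del arrays in the lower, and V544ins and E10 del.v2 had 3 arrays in the lower and 6 in the upper. The mean of 14 kept neuronal markers lay between 4.83 and 11.39 in the mutants and between 5.27 and 10.40 in EGFRvIII, and all 14 had a higher mean in the mutants. The mean of 8 oligodendrocyte progenitor markers ran from 7.55 to 11.54 in the mutants and from 6.74 to 11.40 in EGFRvIII, and that of 10 astrocyte markers from 6.37 to 9.42 in the mutants and from 7.47 to 9.08 in EGFRvIII. Neither receptor used to drive the tumours passed the threshold between the mutants and EGFRvIII. Pdgfra averaged 6.79 over the mutant groups and 7.22 in EGFRvIII (adjusted p = 0.556), and Egfr 5.88 over the mutant groups and 6.05 in EGFRvIII (adjusted p = 0.793). Whether these probe sets detect the introduced constructs is not given in the sources used here. EGFRvIII replicates 4, 5 and 6 stood apart from the other 5: their progenitor marker means were 7.87, 6.74 and 8.97 against 10.07 to 11.40, and their microglia and macrophage marker means 9.22, 9.17 and 8.40 against 7.43 to 8.39. Differences of the 10 genes from EGFRvIII that rest on these 3 arrays are given with and without them. Correlations are given over all 45 arrays only, and so include these 3.

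Against EGFRvIII, 5 of the 10 genes differed in the PDGFRA mutants. Ltbp1, Tgfb3, Tgfbr2 and Ltbp3 were lower in the mutants and Ltbp4 was higher (limma, Benjamini-Hochberg adjusted p under 0.05, mean of the 6 mutant group means minus EGFRvIII). Over all 11809 genes tested 8.9% passed in this comparison, with 419 higher and 632 lower. Without EGFRvIII replicate 4, 5 or 6, Ltbp1 was the 1 of the 10 genes called, where 499, 185 and 329 of all genes passed. Without all 3 it was again the 1 called, where 54 of all genes passed. With the title range as a block 2 of the 10 were called, where 310 of all genes passed. The median log2 difference of the 10 genes was -0.37, against -0.02 over all genes tested. Without those 3 arrays the median of the 10 genes was 0.18, opposite in sign, against -0.0063 over all genes, with 4 genes below 0 and 6 above. Levels are on the log2 scale, a group mean is given with its SD, and a difference with the standard error from limma. That error pools 1 spread over the genotypes in a fit, but EGFRvIII varied more than most mutants for Ltbp1, Ltbp3, Tgfbr2 and Tgfb3. For those genes the errors may be too small and the adjusted p too low. Signals of different probe sets are not on a common scale and are not compared with each other. In bulk tumour RNA, fewer cells of a type and less RNA per cell cannot be told apart.

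Ltbp1, which binds the latent complex of TGF-beta and places it in fibrillin microfibrils, had the largest difference of the 10. The C450 ins arrays read 5.60, 5.72, 4.93, 5.02 and 5.76. The D842V arrays read 5.12, 4.53, 5.01, 4.43 and 5.68. The E10 del arrays read 5.55, 5.24, 4.43, 4.64 and 4.79. All 5 C450 ins arrays lay above the table median, and D842V and E10 del had arrays on both sides of it. The E7 del arrays read 7.40, 3.86 and 4.03, so replicate 1 of E7 del was the highest of all mutant arrays while replicate 2 was the lowest. The E10 del.v2 arrays had a lowest value of 3.88, a median of 4.87 and a highest of 5.42, and V544ins a lowest of 4.01, a median of 4.52 and a highest of 5.93. The Pdgfra WT array read 6.25, above 35 of the 36 mutant arrays. The EGFRvIII arrays read 5.42, 6.31, 7.07, 9.45, 10.31, 9.44, 7.35 and 7.18. Of the 36 mutant arrays, 26 lay below the lowest EGFRvIII array, and the ranges overlapped through the other 10.

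The difference in Ltbp1 was -2.81 ± 0.39, which is 7.03-fold lower in the mutants (adjusted p = 2.79e-05). Group means ran in the order V544ins (4.78 ± 0.77, n = 9), E10 del.v2 (4.85 ± 0.44, n = 9), E10 del (4.93 ± 0.46, n = 5), D842V (4.95 ± 0.50, n = 5), E7 del (5.10 ± 2.0, n = 3), C450 ins (5.41 ± 0.40, n = 5), Pdgfra WT (6.25, n = 1) and EGFRvIII (7.82 ± 1.72, n = 8). The 6 mutants spanned 0.62 and did not differ beyond their spread (limma F test, adjusted p = 0.935). Without EGFRvIII replicates 4, 5 and 6 the difference was -1.66 ± 0.35 (adjusted p = 0.0152), and within titles 41 to 64 alone it was -2.95 ± 0.55 (adjusted p = 0.0196). With both restrictions together it was -1.80 and no longer passed (adjusted p = 0.193). The remaining probe sets of Ltbp1 were lower in the mutants as well, by -0.51 ± 0.13 (adjusted p = 0.0151) and -1.34 ± 0.24 (adjusted p = 0.000755). These sets were dim, above the table median in 0 and 2 of the 45 arrays.

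Ltbp1 lies on chromosome 17 (GRCm38.p6, 75005480 to 75392512, annotated by RefSeq), and its transcripts start from separate promoters that give a long and a short form of the protein. The table of promoters from RefSeq (GRCm38.p6) held windows for 9 of the 10 genes, each 250 bases before to 50 bases after an annotated start, and Tgfb3 had none. Shown here are both windows of Ltbp1 and that of Ltbp3, which fell together in the mutants, and the first of 3 for Ltbp4, which moved the other way. Capitals mark matches to 3 motifs on either strand. The cyclic AMP response element was searched as TGACGTCA and the AP-1 site as TGANTCA. The SMAD box was searched as GTCTG, which reads CAGAC from the opposite strand. The motifs were chosen after the sequences had been seen.
Ltbp1 window 1 (chr17:75005279-75005578, plus strand): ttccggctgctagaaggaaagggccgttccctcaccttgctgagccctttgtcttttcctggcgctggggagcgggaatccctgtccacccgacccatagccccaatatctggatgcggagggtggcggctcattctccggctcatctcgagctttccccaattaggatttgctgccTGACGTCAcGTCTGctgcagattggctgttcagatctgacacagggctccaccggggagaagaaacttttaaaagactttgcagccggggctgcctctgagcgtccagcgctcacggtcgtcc
Ltbp1 window 2 (chr17:75178531-75178830, plus strand): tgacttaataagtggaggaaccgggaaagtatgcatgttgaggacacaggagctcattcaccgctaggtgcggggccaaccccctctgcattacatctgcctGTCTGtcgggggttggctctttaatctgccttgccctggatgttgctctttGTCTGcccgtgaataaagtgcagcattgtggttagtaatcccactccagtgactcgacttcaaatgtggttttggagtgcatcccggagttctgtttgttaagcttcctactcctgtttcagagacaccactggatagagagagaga
Ltbp3 (chr19:5740650-5740949, plus strand): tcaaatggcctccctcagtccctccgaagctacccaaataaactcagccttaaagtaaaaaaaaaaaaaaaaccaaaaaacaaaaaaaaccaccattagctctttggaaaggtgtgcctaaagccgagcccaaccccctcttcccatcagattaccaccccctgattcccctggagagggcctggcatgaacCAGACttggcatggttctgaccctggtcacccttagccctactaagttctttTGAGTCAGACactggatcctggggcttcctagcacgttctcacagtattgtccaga
Ltbp4 window 1 (chr7:27337563-27337862, minus strand): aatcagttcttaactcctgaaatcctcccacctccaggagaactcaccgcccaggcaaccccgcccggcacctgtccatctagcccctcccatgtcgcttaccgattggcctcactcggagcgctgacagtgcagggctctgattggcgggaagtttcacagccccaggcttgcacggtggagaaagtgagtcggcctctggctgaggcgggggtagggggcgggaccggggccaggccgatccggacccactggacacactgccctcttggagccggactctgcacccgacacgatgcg
Window 1 of Ltbp1 held 1 cyclic AMP response element, a motif found in 1.79% of all 32851 promoter windows of this length. The Ltbp3 window held 1 AP-1 site, found in 7.81% of windows, and that site overlapped 1 of its 2 SMAD boxes. The SMAD box was found in 49.6% of all windows and in 8 of the 13 windows of the 10 genes, called or not: those of Tgfb2, Tgfbr2, Ltbp1 (both), Ltbp2, Ltbp3 and Tgfbi, and 1 of 2 of Tgfbr1. The Ltbp4 windows held none, but windows 2 and 3 of that gene share 285 of their 300 bases. A match is a description of the letters and not a binding site. The array does not tell which Ltbp1 promoter was used.

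Ltbp3, which binds the same latent complex and is known for its part in bone and tooth formation, was lower in the mutants. The 36 mutant arrays had a lowest value of 5.78, a median of 6.56 and a highest of 7.46, and the Pdgfra WT array read 7.40. The EGFRvIII arrays read 5.96, 6.32, 6.83, 8.13, 8.50, 8.45, 7.33 and 7.01. EGFRvIII replicates 4, 5 and 6 lay above every mutant array, and the other 5 lay within the range of the mutants. The difference was -0.71 ± 0.20 or 1.64-fold lower (adjusted p = 0.0260), with -0.60 ± 0.29 within titles 41 to 64 (adjusted p = 0.270). Without the 3 EGFRvIII arrays it was -0.08 ± 0.18 (adjusted p = 0.915). Mutant means ran from 6.28 in E10 del to 6.96 in C450 ins. The remaining Ltbp3 probe sets gave -0.64 ± 0.28 and -0.64 ± 0.21 and did not pass (adjusted p = 0.145 and 0.0587).

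Ltbp4, a binder of the latent TGF-beta 1 complex that also takes part in elastic fibre assembly, was the member that was higher in the mutants. The mutant arrays had a lowest value of 5.44, a median of 5.88 and a highest of 6.76, and the Pdgfra WT array read 5.66. The EGFRvIII arrays read 5.96, 5.85, 5.57, 5.46, 5.38, 5.08, 5.26 and 5.45. Of the 36 mutant arrays, 16 lay above the highest EGFRvIII array, and all 6 mutant means, from 5.60 in E10 del to 6.14 in E7 del, lay above the EGFRvIII mean of 5.50 ± 0.29. The difference was 0.43 ± 0.13 or 1.35-fold higher (adjusted p = 0.0313). It was 0.60 ± 0.15 within titles 41 to 64 (adjusted p = 0.0703) and 0.32 ± 0.16 without the 3 EGFRvIII arrays (adjusted p = 0.533), so the direction was kept under both and the call under neither.

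Ltbp2, which associates with microfibrils and does not bind latent TGF-beta, was dim in most arrays and did not pass (difference -0.24 ± 0.31, adjusted p = 0.623). The mutant arrays had a lowest value of 2.80, a median of 3.37 and a highest of 6.41, the Pdgfra WT array read 3.50, and the EGFRvIII arrays had a lowest of 2.90, a median of 3.61 and a highest of 5.38. Its values above the table median were 6.41 in C450 ins replicate 5, 5.04 in D842V replicate 5, 6.26 in E7 del replicate 1, and 4.99 and 5.38 in EGFRvIII replicates 4 and 5. Those 5 arrays came from 4 genotypes.

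**Figure D1:**
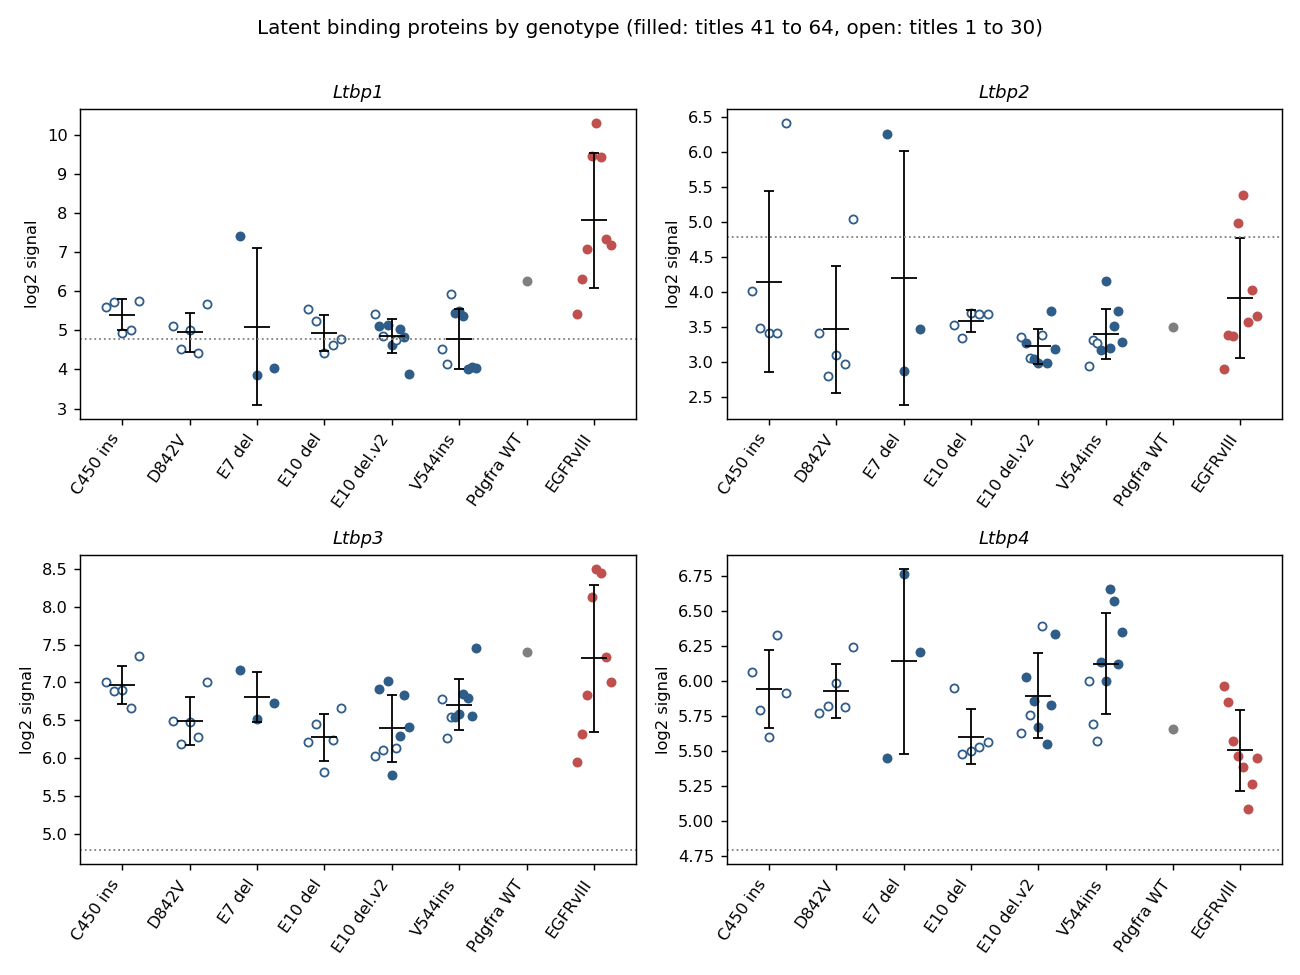
Log2 signal of Ltbp1, Ltbp2, Ltbp3 and Ltbp4 in each array (points) by genotype, with the mean and SD (bars), and the table median of 4.79 as a dotted line. For Ltbp1, 26 of 36 mutant arrays lie below the lowest EGFRvIII array of 5.42, and for Ltbp3 the 3 EGFRvIII arrays at 8.13 to 8.50 stand above all mutant arrays.

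Among the ligands, Tgfb3 was lower in the mutants. The mutant arrays had a lowest value of 4.51, a median of 5.57 and a highest of 7.58, and the Pdgfra WT array read 5.06. The EGFRvIII arrays read 5.86, 4.67, 6.13, 7.52, 8.06, 7.59, 6.65 and 6.62. Replicates 5 and 6 of EGFRvIII exceeded every mutant array, although V544ins replicates 4 and 5, at 7.46 and 7.58, came close to them. The difference was -1.02 ± 0.31 or 2.03-fold lower (adjusted p = 0.0345). It was -1.18 ± 0.44 within titles 41 to 64 (adjusted p = 0.171) and -0.37 ± 0.34 without EGFRvIII replicates 4, 5 and 6 (adjusted p = 0.788). All 6 mutant means lay below the EGFRvIII mean of 6.64 ± 1.10, from 5.18 in E7 del to 5.98 in C450 ins.

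Tgfb1 and Tgfb2, the other ligands, did not pass. Tgfb1 had a lowest value of 2.95, a median of 3.79 and a highest of 4.98 in the mutants, 4.02 in the Pdgfra WT array and 2.99 to 5.92 in EGFRvIII, with a difference of -0.24 ± 0.24 (adjusted p = 0.523). The array that read 5.92 was EGFRvIII replicate 4. Tgfb2 had a lowest value of 4.02, a median of 4.58 and a highest of 5.86 in the mutants, 5.18 in the Pdgfra WT array and 3.85 to 5.99 in EGFRvIII, with a difference of -0.32 ± 0.21 (adjusted p = 0.316). EGFRvIII replicates 4, 5 and 6 held the 3 highest values of that group for Tgfb2, 5.67, 5.72 and 5.99. Without them the difference was 0.15 ± 0.22 for Tgfb2 and 0.28 ± 0.24 for Tgfb1, opposite in sign and not passing (adjusted p = 0.869 and 0.768).

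Of the receptors, Tgfbr2, the type II receptor that binds the ligand first, was lower in the mutants. The mutant arrays had a lowest value of 7.03, a median of 7.70 and a highest of 8.74, and the Pdgfra WT array read 8.42. The EGFRvIII arrays read 7.60, 7.57, 8.17, 9.28, 9.95, 9.89, 8.42 and 7.86. EGFRvIII replicates 4, 5 and 6 lay above every mutant array and the other 5 lay among them. The difference was -0.77 ± 0.25 or 1.71-fold lower (adjusted p = 0.0421). It was -0.61 ± 0.33 within titles 41 to 64 (adjusted p = 0.325) and -0.10 ± 0.24 without those 3 arrays (adjusted p = 0.923). Both remaining probe sets of Tgfbr2 lay below the table median in all 45 arrays and gave -0.24 ± 0.10 (adjusted p = 0.117) and -0.20 ± 0.05 (adjusted p = 0.0196).

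Markers of microglia and macrophages moved with Tgfbr2 across the arrays. The mean of the 13 kept markers of 14 listed ran from 6.72 to 8.90 in the mutants and from 7.43 to 9.22 in EGFRvIII, with 8.91 in the Pdgfra WT array. Of the 13, 3 had a higher mean in the mutants and 10 in EGFRvIII. They included P2ry12 (8.05 in the mutants, 7.34 in EGFRvIII) and Mrc1 (4.74 in the mutants, 6.30 in EGFRvIII), named after their values were seen. The Pearson r of Tgfbr2 with the list mean was 0.77 over the 45 arrays, given as a description. With that mean as a covariate, an alternative added after seeing the data, Tgfbr2 was -0.57 (adjusted p = 0.0160), and the 5 called genes all passed. With host brain content (neuron and myelin markers averaged) as a covariate Tgfbr2 was -0.61 and did not pass (adjusted p = 0.140). Neither did Tgfb3 (-0.80, adjusted p = 0.125) and Ltbp3 (-0.60, adjusted p = 0.0858) with that covariate. Ltbp1 (-2.74, adjusted p = 0.000115) and Ltbp4 (0.52, adjusted p = 0.0184) passed.

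Tgfbr1, the type I receptor, did not pass, with a difference of 0.26 ± 0.21 (adjusted p = 0.432). The mutant arrays had a lowest value of 8.37, a median of 9.83 and a highest of 10.45, the Pdgfra WT array read 10.12, and the EGFRvIII arrays had a lowest of 8.77, a median of 9.41 and a highest of 9.93. Of the 36 mutant arrays, 15 lay above the highest EGFRvIII array and 4 below the lowest. Mutant means ran from 9.35 ± 0.79 in E10 del (n = 5) to 10.14 ± 0.20 in E7 del (n = 3). Within titles 41 to 64 the difference was 0.57 ± 0.21 (adjusted p = 0.171). The remaining probe sets of Tgfbr1 read below the table median in all 45 arrays and showed differences of -0.0081 and -0.031.

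Tgfbi varied more among the mutants than any other of the 10 genes, with mutant means spanning 3.16. The C450 ins arrays read 8.60, 7.89, 7.85, 9.17 and 10.78. The D842V arrays read 9.14, 9.35, 9.74, 9.39 and 10.95. The E7 del arrays read 9.41, 7.63 and 8.46. The lowest of these was 7.63. The E10 del arrays read 6.35, 7.16, 7.20, 9.26 and 6.02. The E10 del.v2 arrays had a lowest value of 3.91, a median of 6.87 and a highest of 7.82, and V544ins a lowest of 6.09, a median of 7.94 and a highest of 11.34. The Pdgfra WT array read 7.66. The EGFRvIII arrays read 5.59, 5.84, 8.69, 10.91, 10.79, 9.58, 8.03 and 9.61. Every D842V array lay above every E10 del.v2 array.

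Group means of Tgfbi ran in the order E10 del.v2 (6.56 ± 1.26, n = 9), E10 del (7.20 ± 1.26, n = 5), Pdgfra WT (7.66, n = 1), V544ins (8.44 ± 1.70, n = 9), E7 del (8.50 ± 0.89, n = 3), EGFRvIII (8.63 ± 2.04, n = 8), C450 ins (8.86 ± 1.20, n = 5) and D842V (9.72 ± 0.72, n = 5). Each mean differed from its neighbours in that order by less than the larger SD. Tgfbi was not called by limma's F test among the mutants (unadjusted p = 0.00394, adjusted p = 0.122). The mutants together were -0.42 ± 0.57 against EGFRvIII (adjusted p = 0.647). The adjusted p of the F test was 0.0463 with only the mutant arrays in the fit, where 301 genes were called. With host brain content as a covariate it was 0.0445, where 239 genes were called. The main fit called 68 genes. Array weights also called Tgfbi, along with 10855 genes in all. Of 14 alternatives other than leaving out 1 array, 11 left Tgfbi uncalled, with an adjusted p of up to 0.480. When each array was left out, the adjusted p ran from 0.0742 to 0.201. The second probe set of Tgfbi followed the first closely (Pearson r = 0.985 over the 45 arrays, as a description) and gave -0.35 ± 0.53 against EGFRvIII. Over the 45 arrays, as a description, Tgfbi had r = -0.54 with the neuron marker mean and r = 0.53 with the mean of 7 fibroblast markers. These were its largest in size among the marker lists, and r was 0.49 with the pericyte mean. Neuron marker means were 9.20 in E10 del.v2, 9.90 in E10 del and 9.03 in D842V, and fibroblast marker means 6.05, 6.65 and 7.03 in the same order, and their part in the Tgfbi levels was not tested.

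**Figure D2:**
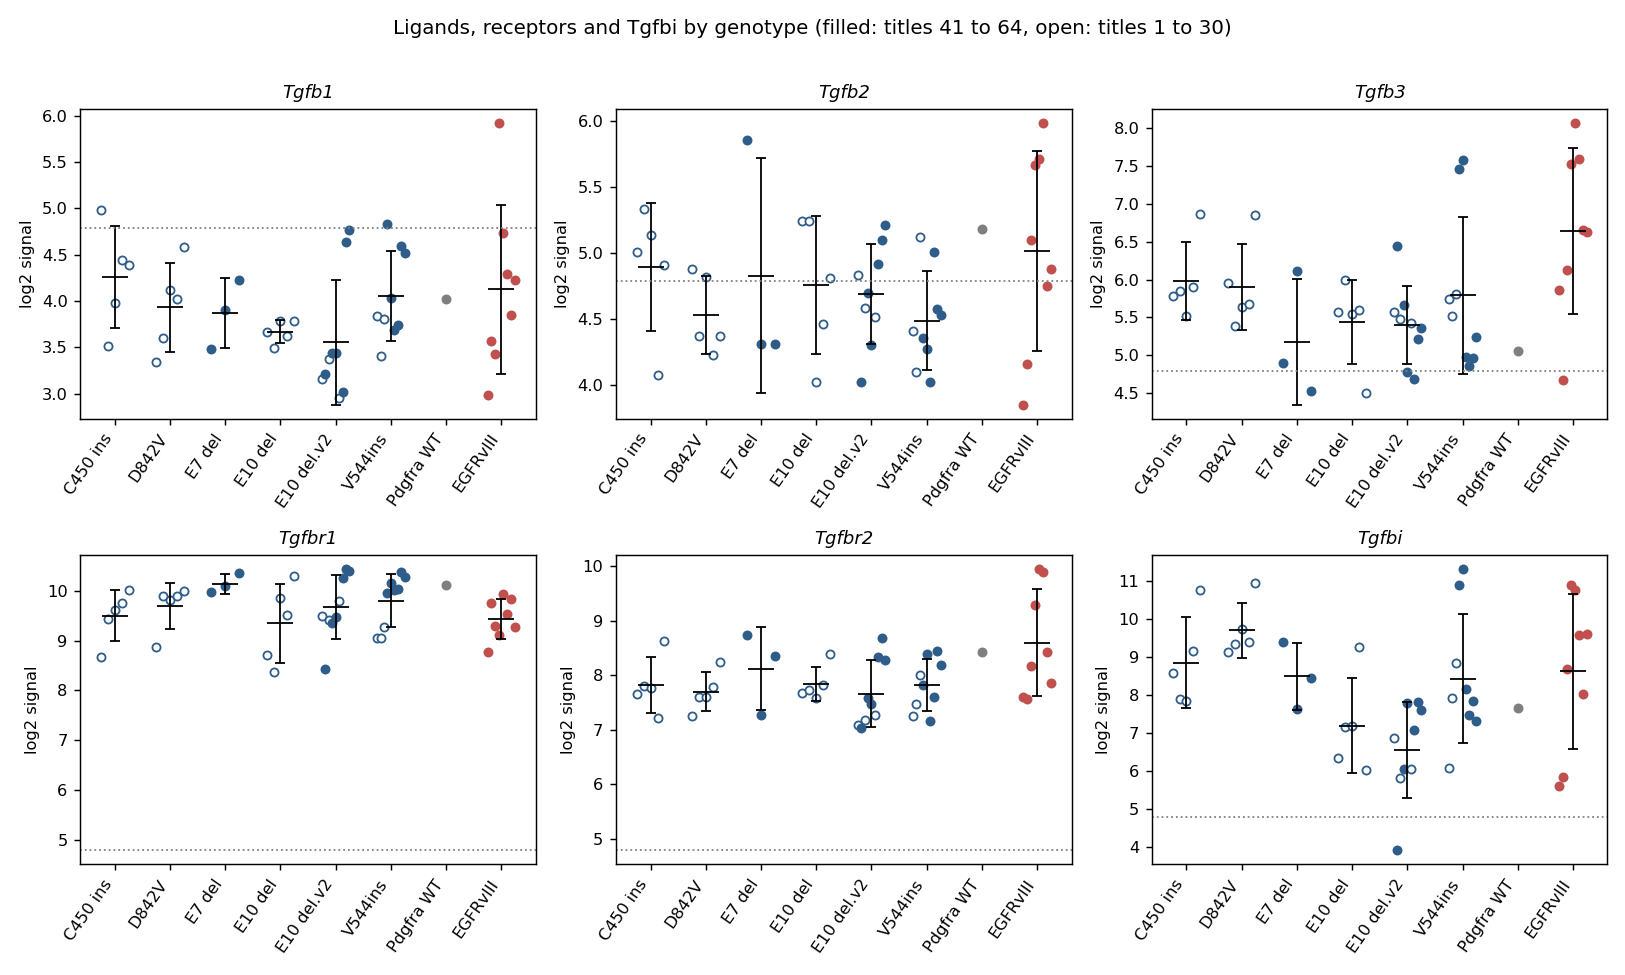
Log2 signal of Tgfb1, Tgfb2, Tgfb3, Tgfbr1, Tgfbr2 and Tgfbi in each array (points) by genotype, with the mean and SD (bars), and the table median of 4.79 as a dotted line. Tgfbi is highest in D842V (mean 9.72) and lowest in E10 del.v2 (mean 6.56), and for Tgfbr2 the EGFRvIII arrays at 9.28 to 9.95 stand above all mutant arrays.

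Each mutant was also set against EGFRvIII by itself. These 6 contrasts share the EGFRvIII arrays. Ltbp1 passed in 5 of them: D842V (-2.86 ± 0.56, adjusted p = 0.00336), E7 del (-2.72 ± 0.66, adjusted p = 0.0442), E10 del (-2.88 ± 0.56, adjusted p = 0.00389), E10 del.v2 (-2.97 ± 0.48, adjusted p = 0.000562) and V544ins (-3.03 ± 0.48, adjusted p = 0.000446). In C450 ins it was -2.41 ± 0.56 and missed the threshold (adjusted p = 0.123). With only the 2 genotypes of a contrast in the fit, the Ltbp1 differences were the same and 1 of the 6 passed, E10 del.v2 (adjusted p = 0.0455). Within titles 41 to 64, which hold 3 of the mutants, 1 of 3 passed, V544ins (-3.07 ± 0.67, adjusted p = 0.0425). C450 ins had 0 of the 10 genes called, where 0.0254% of all genes passed. D842V and E7 del had 1 of 10, with 3.14% and 0.5% of all genes passing. E10 del had 2, Ltbp1 and Ltbp3 (-1.04 ± 0.29, adjusted p = 0.0208), with 18.4% of all genes passing. E10 del.v2 had 4, with 7.06% of all genes passing: Ltbp1, Ltbp3 (-0.92 ± 0.25, adjusted p = 0.0244), Tgfb3 (-1.23 ± 0.38, adjusted p = 0.0441) and Tgfbr2 (-0.94 ± 0.30, adjusted p = 0.0494). V544ins had 2, with 4.06% of all genes passing: Ltbp1 and Ltbp4 (0.62 ± 0.16, adjusted p = 0.0203). In C450 ins 3 genes (Ltbp1, Tgfbr2 and Ltbp4) had an unadjusted p under 0.05. That number was 4 in D842V, 3 in E7 del, 4 in E10 del, and 6 each in E10 del.v2 and V544ins. The share of all genes at the unadjusted threshold is not given here. Of the calls in these 6 contrasts, Ltbp1 in E10 del.v2 alone was kept with only the 2 genotypes of a contrast in the fit. The Ltbp3, Tgfb3, Tgfbr2 and Ltbp4 calls were all lost there, at unchanged differences. The share of all genes passing is not given for those fits or for the single contrasts within titles 41 to 64. The lost calls are therefore not read as particular to the 10 genes. Without EGFRvIII replicates 4, 5 and 6 there were 2 member calls over the 6 contrasts in place of 10. They were Ltbp1 in D842V (-1.71 ± 0.46, adjusted p = 0.0451) and in V544ins (-1.88 ± 0.41, adjusted p = 0.0193). The share of all genes passing in these contrasts without the 3 arrays is not given here.

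Among the mutants themselves, 0 of the 10 genes passed the F test, where 0.576% of all genes did, and Tgfbi was the 1 with an unadjusted p under 0.05. In each mutant against the mean of the other 5, 0 of the 10 passed. The share of all genes that passed was 0% for C450 ins, E10 del.v2 and V544ins, 0.584% for D842V, 0.356% for E7 del and 0.796% for E10 del. An unadjusted p under 0.05 was reached by 1 gene each in D842V (Tgfbi), E10 del.v2 (Tgfbi) and E10 del (Ltbp4, -0.40 ± 0.16), and by 0 in the other 3. Shares of all genes at the unadjusted threshold are not given for these tests. Tgfbi was 1.81 ± 0.70 higher in D842V (unadjusted p = 0.0137, adjusted p = 0.252) and differed by -1.98 ± 0.56 in E10 del.v2 (unadjusted p = 0.00105, adjusted p = 0.807). Between titles 41 to 64 and titles 1 to 30 within V544ins and E10 del.v2, 0 of the 10 genes passed, where 1.02% of all genes did, and Tgfbr1 was the 1 with an unadjusted p under 0.05 (0.59 ± 0.25, adjusted p = 0.160). Ltbp1 differed by -0.18 ± 0.50 (adjusted p = 0.851).

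**Figure D3:**
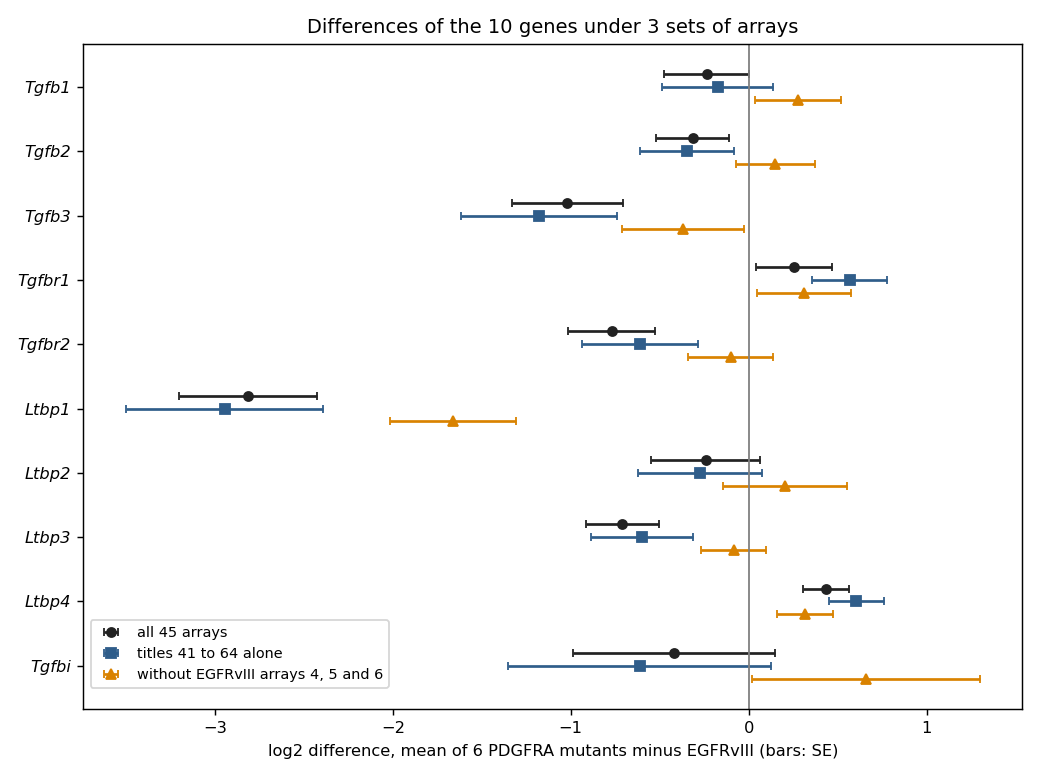
Log2 difference of each gene, mean of the 6 PDGFRA mutants minus EGFRvIII, with SE, for all 45 arrays, titles 41 to 64 alone, and without EGFRvIII replicates 4, 5 and 6. Ltbp1 stays at -1.66 without those 3 arrays, whereas Tgfbr2 and Ltbp3 lie at -0.10 and -0.08.

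The EGFRvIII group was itself uneven. Replicates 4, 5 and 6 read 9.44 to 10.31 for Ltbp1 against 5.42 to 7.35 in the other 5 arrays, 8.13 to 8.50 for Ltbp3 against 5.96 to 7.33, 9.28 to 9.95 for Tgfbr2 against 7.57 to 8.42, and 7.52 to 8.06 for Tgfb3 against 4.67 to 6.65. For these 4 genes and for Tgfb1 and Tgfb2 the 3 arrays did not overlap with the other 5. For Tgfb1 the gap was narrow, with 4.30 to 5.92 against 2.99 to 4.22. Ltbp2, Ltbp4 and Tgfbi overlapped. The share of all genes without overlap was not counted, so the separation is not read as particular to these genes. Tgfbr1 was not part of this pattern, with 9.11 to 9.93 in the 3 arrays and 8.77 to 9.83 in the other 5. The fibroblast marker means of replicates 4, 5 and 6 were 8.11, 7.44 and 6.81, against 5.34 to 6.97 in the other 5. Over all 45 arrays Tgfb3 had r = 0.57 with the fibroblast mean and Ltbp1 r = -0.48 with the progenitor mean. Each is the largest in size for its gene among the marker lists, and others were close. Tgfb3 had r = 0.55 with the pericyte mean and -0.51 with the progenitor mean, and Ltbp1 had 0.42 with the endothelial mean. The part of these cell types in the differences was not tested.

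**Figure D4:**
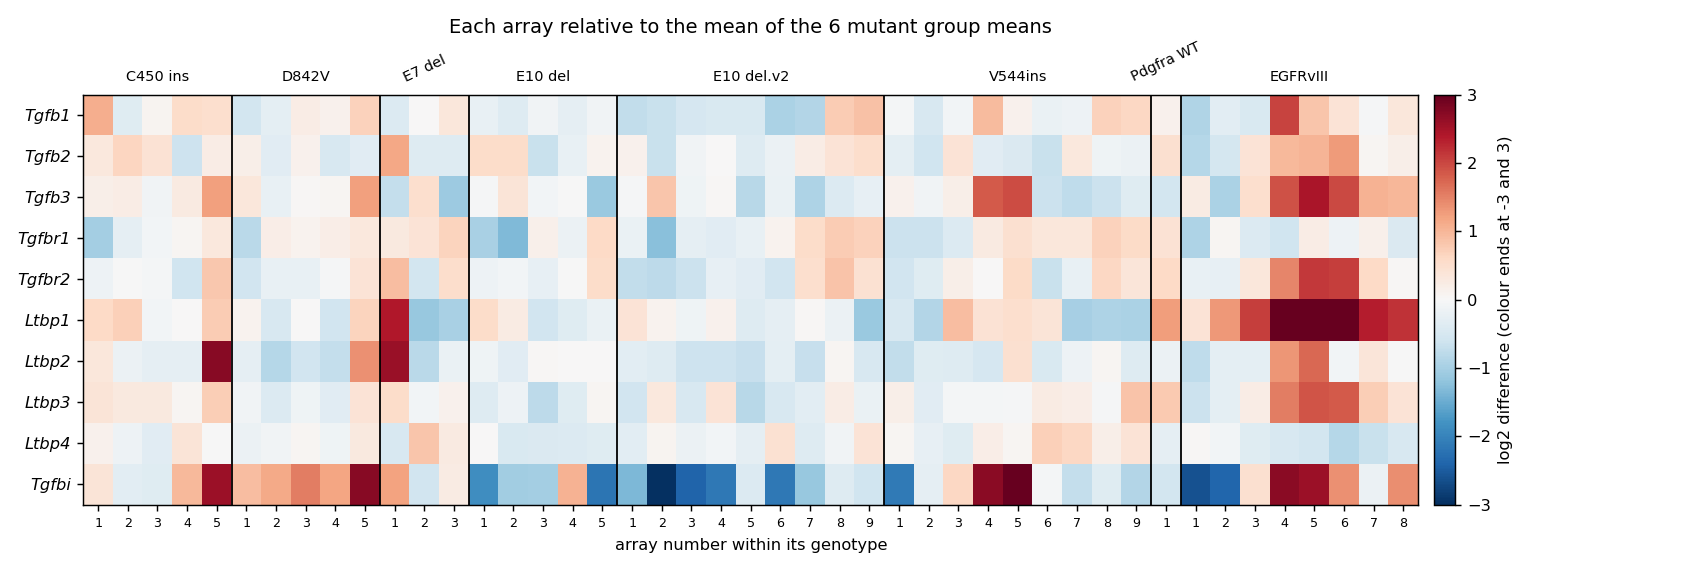
Log2 signal of each gene in each array minus the mean of its 6 mutant group means (colour, ending at -3 and 3), with arrays in columns by genotype. EGFRvIII arrays 4, 5 and 6 are high for Ltbp1, Ltbp3, Tgfbr2 and Tgfb3, and E7 del array 1 is high for Ltbp1 and Ltbp2.

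The genes most like each called gene over the 45 arrays are given as a description, by Pearson r with Spearman rho, and the arrays of a genotype share its level. For Ltbp1 they were Mgst2, a microsomal glutathione transferase (r = 0.87, rho = 0.62), C730049O14Rik (r = 0.86, rho = 0.70) and Aox1, an aldehyde oxidase (r = 0.85, rho = 0.60). For Ltbp3 they were Eml3 (r = 0.86, rho = 0.77), Mxra7 (r = 0.84, rho = 0.73) and Cp, ceruloplasmin (r = 0.80, rho = 0.70). For Tgfbr2 they were B4galt1, a galactosyltransferase (r = 0.91, rho = 0.87), Hhex, a homeobox factor (r = 0.90, rho = 0.85), and Cd53, a tetraspanin of leukocytes (r = 0.90, rho = 0.92). For Tgfb3 they were Slc38a6 (r = 0.81, rho = 0.63), the zinc transporter Slc30a4 (r = 0.78, rho = 0.59) and Ero1a, an oxidase of the endoplasmic reticulum (r = 0.78, rho = 0.72). For Ltbp4 they were the linker histone gene H1f10 (r = 0.83, rho = 0.80), Vps52 (r = 0.74, rho = 0.71) and Acvr2b, an activin receptor (r = 0.73, rho = 0.74). Between the 10 genes themselves, the closest pairs were Tgfbr2 with Ltbp3 (r = 0.75) and Ltbp1 with Ltbp3 (r = 0.74), and Ltbp1 with Ltbp4 ran opposite (r = -0.59).

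Further genes of the pathway were read from lists in the same comparison of the mutants with EGFRvIII, where 8.9% of all genes passed. Of 4 co-receptors and receptor partners, 1 fell and 0 rose: Bambi, a pseudoreceptor that blocks signalling, was -0.98 ± 0.21 (adjusted p = 0.00449), while Cd109 was -0.53 ± 0.45, Tgfbr3 -0.06 ± 0.38 and Eng -0.04 ± 0.17. Of 11 SMADs and inhibitors, 1 fell and 0 rose: Tgif1, a corepressor of SMAD targets, was -1.48 ± 0.43 (adjusted p = 0.0271). Smad3, which carries the receptor signal to the nucleus, was -0.64 ± 0.25 and Smad2 -0.23 ± 0.11, neither of which passed (adjusted p = 0.0905 and 0.153).

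Of 9 activators and anchors of latent TGF-beta, 2 fell and 0 rose. Mmp14, a membrane metalloprotease that can release the ligand, was -1.39 ± 0.26 (adjusted p = 0.00112), and Furin, the protease that cuts the propeptide, was -0.56 ± 0.18 (adjusted p = 0.0465). Nrros, the anchor of latent TGF-beta on microglia, was -0.42 ± 0.20 and Itgb1 -0.67 ± 0.33, and neither passed. Of 8 microfibril and elastic fibre genes 1 fell, Emilin1, an inhibitor of TGF-beta precursor processing (-1.48 ± 0.37, adjusted p = 0.0114). The median of that list was 0.20, the 1 pathway list with a median above that of all genes. Of 5 secreted binders and inhibitors 0 passed, with Fmod at 1.19 ± 0.41 (adjusted p = 0.0587) and Htra1 at -0.77 ± 0.27 (adjusted p = 0.0614).

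Of 20 response genes 3 fell and 0 rose. Cdkn2b, which encodes the cell cycle inhibitor p15, was -2.27 ± 0.35 or 4.81-fold lower (adjusted p = 8.84e-05). Its mutant means ran from 6.01 in E10 del to 7.95 in E7 del, the Pdgfra WT array read 9.87, and the EGFRvIII arrays read 7.89, 9.97, 9.24, 9.43, 10.99, 10.81, 8.57 and 8.63. Fn1, fibronectin, was -1.26 ± 0.37 (adjusted p = 0.0271), and Tgif1, which stands in this list too, is given above. Acta2, smooth muscle actin, was -1.10 ± 0.40 and did not pass (adjusted p = 0.0705). The median difference of the list was -0.41, against -0.02 over all genes. Without EGFRvIII replicates 4, 5 and 6 it was -0.017, against -0.0063 over all genes. With those 3 arrays left out, Cdkn2b (-1.69 ± 0.39, adjusted p = 0.0338) and Emilin1 (-2.07 ± 0.43, adjusted p = 0.0128) passed, while Bambi (-0.54), Tgif1 (0.06), Mmp14 (-0.86), Furin (0.09) and Fn1 (-0.33) did not. Within titles 41 to 64 alone, Cdkn2b passed (-1.96 ± 0.41, adjusted p = 0.0304) and none of the other 6 did, although their differences were near those over all arrays: Bambi -1.07, Tgif1 -1.40, Mmp14 -1.32, Furin -0.64, Emilin1 -1.37 and Fn1 -1.23. Itgb8, Thbs1, Lrrc32, Fbn1, Efemp2, Pmepa1 and Tagln were not analysed here.

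**Figure D5:**
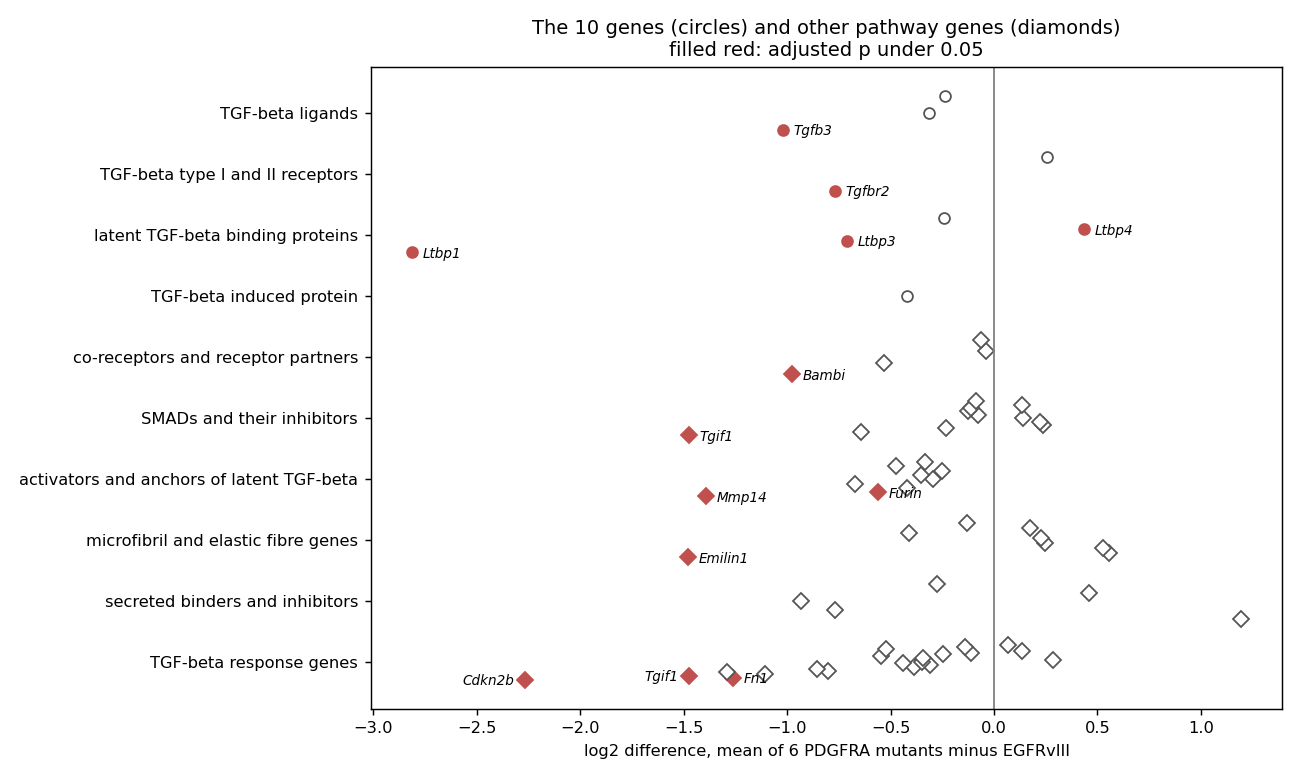
Log2 difference, mean of the 6 PDGFRA mutants minus EGFRvIII, for the 10 genes (circles) and further pathway genes (diamonds) by list, filled red where the adjusted p was under 0.05. Called genes other than Ltbp4 (0.43) lie left of 0, from Ltbp1 at -2.81 to Furin at -0.56.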

How the data were processed

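Per the labels' protocols, each of the 45 mouse brain tumour RNAs was hybridised to an Affymetrix 3' IVT array. The deposited values are log2 signals per probe set made with RMA, per the submitters' processing notes, which state no version, and they were used as deposited. Of 45141 probe sets, 28898 had 1 gene symbol, 551 had several and 15692 had none, by the platform annotation. The probe set with the highest mean stood for its gene. RMA's quantile step removes array-wide shifts. The 8 genotypes were fitted as 1 factor with no covariate (limma 3.58.1, lmFit and eBayes, R 4.3.3), with Benjamini-Hochberg adjustment over the 11809 kept genes, and an adjusted p under 0.05 was called. Pdgfra WT entered the fit and was not contrasted. The number of arrays limits the precision. No arrays were identical (highest Pearson r 0.9935). Replicates were numbered in accession order. The procedure was run on simulated data with independent arrays and 1 spread per gene over all genotypes. That simulation did not cover unequal spreads or related arrays.

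The members and the lists, and the tests, were chosen with earlier results of these data known. Named were all 10 members, the 3 genes closest to each called member and up to 4 genes with the smallest p in each pathway list. Alternatives were other filters (none, or 9 arrays above the median), averaging a gene's probe sets, centring, quantile normalisation, a trended robust prior, array weights, the title range as a block or alone, a host brain covariate, 1 mutant group, only the arrays compared, arrays that stood apart left out, other probe sets and each array left out. Added after seeing the data were the microglia covariate and titles 41 to 64 without 3 EGFRvIII arrays. Promoter sequences are those of RefSeq (GRCm38.p6).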

Additional observations from a re-analysis of the deposited data

Results flagged for a closer look

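In 6 of 60 combinations of a gene and a genotype with 4 to 10 arrays, 1 array lay far from the others of its genotype by Dixon's test, which chance alone does in about 1 of 20 groups. Tgfb3 in C450 ins replicate 5 was 6.86, against 5.52 to 5.90 in the other arrays of C450 ins. Ltbp2 in the same array was 6.41, against 3.41 to 4.01. Ltbp2 in D842V replicate 5 was 5.04, against 2.80 to 3.41. Tgfbr1 in D842V replicate 1 was 8.87, against 9.81 to 9.999. Ltbp3 in V544ins replicate 9 was 7.46, against 6.26 to 6.84. Ltbp4 in E10 del replicate 1 was 5.94, against 5.47 to 5.56.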

How the results depend on the processing

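Ltbp1 was lower in the mutants under all alternatives, was called in all 45 fits that left out 1 array (-3.16 to -2.46), and lost its call only within titles 41 to 64 without EGFRvIII replicates 4, 5 and 6 (-1.80, adjusted p = 0.193). With 1 array left out, Tgfb3 was called in 41 of 45 fits (-1.30 to -0.82), Tgfbr2 in 36 (-0.92 to -0.58), Ltbp3 in 42 (-0.91 to -0.54) and Ltbp4 in 40 (0.37 to 0.50), and Tgfb1 ran from -0.40 to 0.021, positive without EGFRvIII replicate 4. Members called against EGFRvIII ranged from 1 to 5 and genes called from 185 without EGFRvIII replicate 5 to 2239 without EGFRvIII replicate 1. Only 1 member was called without EGFRvIII replicate 4, 5 or 6, with 499, 185 and 329 genes called, and 3 without E7 del replicate 2. Member calls over the 6 single contrasts ranged from 4 to 17, genes called by the F test from 4 to 141, members called by it and against the other mutants stayed at 0, and members called between the title ranges ranged from 0 to 1. The cause was not tested for any of these.

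With array weights, which ran from 0.175 to 9.94, 2 members were called against EGFRvIII and 18 over the single contrasts. The F test then called 10855 of 11809 genes, so its 9 calls among the 10 members lay near that share. Against the other mutants 24 member calls were made. For the single contrasts and those against the other mutants, shares over all genes are not given under the alternatives. With the title range as a block, 310 genes and 2 members were called, 5 over the single contrasts and 14 genes by the F test, and Tgfb1 (0.11) and Tgfbi (0.095) changed sign. Titles 41 to 64 alone gave 80 genes and 1 member, 1 over the single contrasts and 0 genes by the F test. Titles 1 to 30 alone gave 223 genes by the F test and 1 member call against the other mutants. The host brain covariate gave 560 genes and 2 members, 6 over the single contrasts, 239 genes and 1 member by the F test and 1 member call against the other mutants, and Tgfbi changed sign (0.17). With only the arrays compared, there was 1 member call over the single contrasts, and the F test called 301 genes and 1 member.

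Without EGFRvIII replicates 4, 5 and 6, 54 genes and 1 member were called, 2 over the single contrasts and 308 genes by the F test, and Tgfb1 (0.28), Tgfb2 (0.15), Ltbp2 (0.20) and Tgfbi (0.66) changed sign. With titles 41 to 64 alone as well, 2 genes and 0 members were called, and Tgfb1 (0.34), Tgfb2 (0.12), Tgfbr2 (0.059), Ltbp2 (0.17), Ltbp3 (0.024) and Tgfbi (0.47) changed sign. With 4 arrays left out (E10 del 1, 2 and 3, E10 del.v2 2), 3 members were called, 6 over the single contrasts, 36 genes by the F test and 1 member between the title ranges. The dim Tgfbr1 probe sets changed sign (-0.0081 and -0.031). The title ranges and the genotypes are partly confounded, since EGFRvIII lies in 1 range.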

Other observations

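Some mutant arrays were high for several of the 10 genes at once. E7 del replicate 1 read 7.40 for Ltbp1, 6.26 for Ltbp2 and 5.86 for Tgfb2, each the highest of its genotype, and 5.44 for Ltbp4, the lowest. Its neuron and astrocyte marker means were 8.99 and 9.42, against 5.41 to 5.82 and 6.89 to 7.67 in the other E7 del arrays. C450 ins replicate 5 and D842V replicate 5 were the highest of their genotypes for Tgfb3 (6.86 and 6.86), Tgfbr2 (8.63 and 8.24), Ltbp1 (5.76 and 5.68), Ltbp2 (6.41 and 5.04), Ltbp3 (7.35 and 7.01) and Tgfbi (10.78 and 10.95). Their fibroblast marker means were 8.83 and 8.96, against 6.84 to 7.30 and 5.80 to 7.43 in the other arrays of C450 ins and D842V, and their neuron marker means, 5.91 and 5.89, were the lowest of those genotypes. The mean of 3 kept granulocyte markers of 9 listed was 9.51 in D842V replicate 5, against 3.12 to 4.30 in the other D842V arrays, and that of 3 platelet and megakaryocyte markers 6.80 against 4.82 to 5.46. In C450 ins replicate 5 these means were 6.36 against 4.13 to 6.54 and 6.16 against 5.18 to 5.92. Pericyte and endothelial marker means were also the highest of their genotype in both arrays. V544ins replicates 4 and 5 read 7.46 and 7.58 for Tgfb3 and 10.92 and 11.34 for Tgfbi, the highest of that genotype, with neuron marker means of 5.70 and 4.83. The part of these cell types in the values was not tested.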
